A study of Mus musculus with 6 samples.

Results

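Cdkn1a and 9 related genes were followed in the atria of obese and lean mice. They are 5 inhibitors of cyclin-dependent kinases (CDKs), namely Cdkn1a, Cdkn1b, Cdkn1c, Cdkn2c and Cdkn2d, and 5 genes of the p53 pathway, namely Trp53, Mdm2, Ccng1, Trp53inp1 and Zmat3. They were taken by gene name from the 43432 genes of the deposited table, and each name matched 1 row. The set was chosen by values of the comparison described here, which were known at the time: Cdkn1a had rank 2 by p and rank 41 by log2 fold change among 15275 genes tested. The differences of these 10 genes between the diets are therefore given as a description, without a test. RNA came from right and left atria of C57/Bl6J wild-type mice, 3 fed a high-fat diet (HFD, obese) and 3 fed control chow (lean), each for 10 weeks from 6 weeks of age. The diet was taken from the sample titles, which match the columns of the table, headed as cases for HFD and as controls for chow, while the treatment field of the sample labels names the other diet for all 6 mice. If that field were right, every direction given here would be turned around. Nothing in the labels says how many cages or litters the mice came from, so p-values measure the spread between these 6 samples.

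The product of Cdkn1a, p21, binds cyclin-CDK complexes and holds cells before DNA replication. It is the best known transcriptional target of p53, the DNA damage responsive transcription factor encoded by Trp53, but other factors also switch it on without p53. In the heart, where adult cardiomyocytes rarely divide, p21 and its relatives p27 (Cdkn1b) and p57 (Cdkn1c) are known as brakes on cell cycle re-entry. The INK4 proteins p18 (Cdkn2c) and p19 (Cdkn2d) bind CDK4 and CDK6 alone. Mdm2 encodes the ligase that marks p53 for degradation, while Ccng1 (cyclin G1), Trp53inp1 and Zmat3 (Wig1) are targets of p53 whose products act back on p53, on cell death or on RNA stability.

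Because p53 binds DNA at a pair of half-sites, the bases before the start sites were searched for them. RefSeq promoter sequences (GRCm38.p6) were at hand for 7 of the 10 genes, with 9 start sites, namely Ccng1, Cdkn1a, Cdkn1b, Cdkn2c, Cdkn2d, Mdm2 and Trp53. Cdkn1c, Trp53inp1 and Zmat3 were not matched. In the 250 bases before each start, the p53 half-site consensus was sought, which reads the same on both strands, and then a full site of 2 adjoining half-sites with at most 1 mismatch. A half-site lay in 5 of the 9 windows and in 7.13% of the 32851 mouse windows of the same length. A full site lay in 2 of the 9 windows, those of Ccng1 and of the upstream start of Cdkn1a, and in 0.0578% of all windows, 19 in number. The windows with a full site, and that of Mdm2 with 1 half-site, are shown 5′ to 3′ on the strand of the gene, with matches in capitals and without bases that an annotated exon covers. They lie at chr17:29090729-29090975 on the plus strand for Cdkn1a, chr11:40755312-40755536 on the minus strand for Ccng1 and chr10:117710759-117711008 on the minus strand for Mdm2.
Cdkn1a: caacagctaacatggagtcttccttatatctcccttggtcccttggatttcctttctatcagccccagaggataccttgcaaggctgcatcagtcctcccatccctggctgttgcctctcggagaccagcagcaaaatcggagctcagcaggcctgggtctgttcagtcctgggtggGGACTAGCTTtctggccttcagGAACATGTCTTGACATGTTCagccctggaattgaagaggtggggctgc
Ccng1: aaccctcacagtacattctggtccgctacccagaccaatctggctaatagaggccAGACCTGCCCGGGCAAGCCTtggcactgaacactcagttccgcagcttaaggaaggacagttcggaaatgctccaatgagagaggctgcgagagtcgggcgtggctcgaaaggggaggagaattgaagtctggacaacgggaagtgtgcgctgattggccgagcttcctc
Mdm2: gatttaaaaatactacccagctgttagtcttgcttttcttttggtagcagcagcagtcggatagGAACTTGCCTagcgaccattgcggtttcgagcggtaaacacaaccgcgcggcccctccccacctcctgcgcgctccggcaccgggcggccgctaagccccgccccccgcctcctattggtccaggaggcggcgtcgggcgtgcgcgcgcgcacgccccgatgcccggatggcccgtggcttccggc
In Cdkn1a the full site spans chr17:29090928-29090947, from 51 to 32 bases before the upstream start, with a further half-site 73 bases before it. The downstream start of Cdkn1a lies 2790 bases further, which puts this site 2841 bases before it, and its own window held no half-site. In Ccng1 the full site lies 195 to 176 bases before the start. The half-site of Mdm2, 186 bases before its start, belongs to the upstream promoter, while the well known p53-responsive promoter of Mdm2 lies in its first intron and was not searched. A match is a description of letters and not a binding event, and the values per gene do not separate start sites. Of 34 further p53 targets taken as a list, 28 had a RefSeq window, of which 8 held a half-site (Aen, Bax, Ei24, Pml, Polk, Ppm1d, Rps27l and Sesn1) and 1 a full site (Rps27l).

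Libraries held between 15874251 and 28971508 reads on genes, the deepest being lean mouse 2, which also had the largest share of mitochondrial reads (30.7%, against 19.5% to 24.4%). Values are read counts normalized by the authors to a common library size. The lowest value among the 10 genes rested on 145 reads, Cdkn2d in obese mouse 3, and the highest on 16553 reads, Ccng1 in lean mouse 2. The 6 atrial cardiomyocyte markers were abundant in every library, and their summed value was 302216 to 531225 in obese and 461889 to 504268 in lean atria. Within the obese group this sum was 305748 and 302216 in mice 1 and 2 but 531225 in mouse 3. Taken singly, all 6 markers had a negative log2 fold change, obese minus lean, with a median of -0.37. Of the 6, 0 passed an adjusted p of 0.05 and 3 had an unadjusted p under 0.05 (limma), beside 12.2% of all genes tested. For 2 of the 6, all obese values lay below all lean values, against 9.17% of all genes tested. In lean mouse 2 the summed ventricular markers stood at 13770, against 4262 to 6415 in the other mice.

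Cdkn1a was about 5 times as abundant in obese as in lean atria, and none of its 9 relatives differed by as much. Its normalized read count was 2140, 2427 and 2943 in obese mice 1, 2 and 3 and 545.3, 540.7 and 411.0 in lean mice 1, 2 and 3. Every obese mouse lay far above every lean mouse, so the groups did not overlap. The means were 2503 ± 407 and 499 ± 76.2 (SD, n = 3), a ratio of 5.02 and a log2 fold change of 2.32 (SE 0.16). The gene lies on mouse chromosome 17 from 29090979 to 29100722 (GRCm38, plus strand; the positions of the other genes are of the same build) and rested on 376 to 2591 reads per library. Leaving out any 1 mouse kept the log2 fold change between 2.19 and 2.43. In bulk tissue, fewer or more cells of a type and less or more RNA per cell cannot be told apart.

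**Figure D1:**
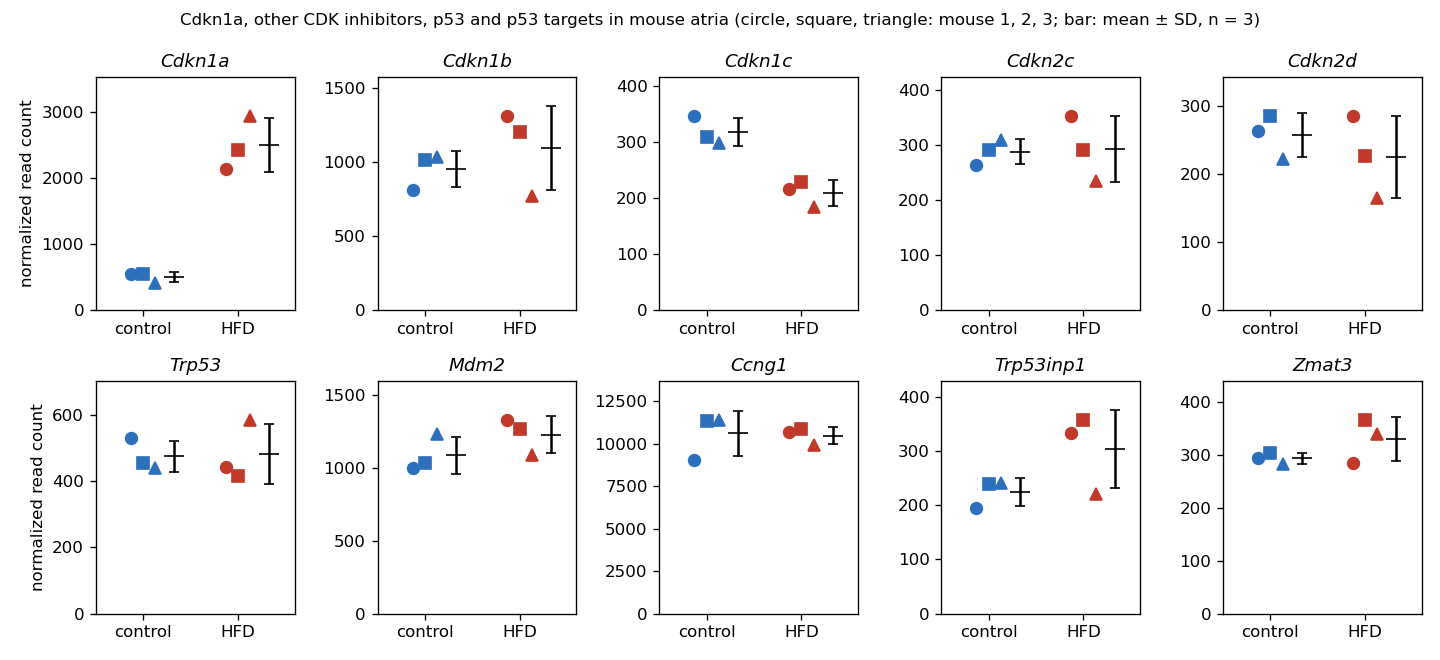
Normalized read counts (vertical axes, each from 0) of the 5 CDK inhibitors and the 5 p53 pathway genes in 3 lean (blue) and 3 obese (red) mice, with mean ± SD beside the points. The obese mice stand above all lean mice for Cdkn1a, at 2140 to 2943 against 411.0 to 545.3, and below them for Cdkn1c, at 184 to 228 against 299 to 347, while the other 8 genes overlap.

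The other member of the CIP/KIP family that kept the groups apart moved the other way. Cdkn1c (chr7:143458350-143461050), an imprinted gene whose protein p57 restrains growth, had 217, 228 and 184 normalized reads in obese and 347, 310 and 299 in lean mice. All obese values lay below all lean values, with means of 210 ± 23.1 and 319 ± 25.0 and a log2 fold change of -0.60 (SE 0.15). Cdkn1b (chr6:134920401-134925513), encoding p27, had 1311, 1202 and 771 normalized reads in obese and 813, 1014 and 1034 in lean mice. Obese mice 1 and 2 exceeded every lean mouse while obese mouse 3 was the lowest of all 6, and the log2 fold change was 0.17 (SE 0.19), or between 0.02 and 0.40 when any 1 mouse was left out.

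Both INK4 genes overlapped between the diets. Cdkn2c (chr4:109660876-109667189), whose p18 protein blocks CDK4 and CDK6, had 353, 292 and 234 normalized reads in obese and 264, 292 and 308 in lean mice, a log2 fold change of 0.01 (SE 0.17). Cdkn2d (chr9:21288463-21291209) had 284, 225 and 165 normalized reads in obese and 263, 285 and 222 in lean mice, a log2 fold change of -0.22 (SE 0.21). Leaving out any 1 mouse moved these values between -0.14 and 0.16 for Cdkn2c and between -0.40 and -0.01 for Cdkn2d. For both genes obese mouse 1 was highest and obese mouse 3 lowest within its group. Of 3 further inhibitor genes, 2 were near the limit of 3 reads, which is 2.05 to 3.41 normalized reads depending on the library. Cdkn2a, encoding p16 and ARF and used as a mark of senescent cells, ranged from 0 to 4.48 normalized reads over the 6 mice, and Cdkn3, a CDK-bound phosphatase, from 0 to 6.56. The third, Cdkn2b (p15), passed the filter for testing, a mean of at least 10, with 12.2 ± 2.03 in obese and 20.6 ± 7.15 in lean atria and an adjusted p of 0.638 (limma, adjusted over all 15275 genes).

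Per kilobase of exon, a scale on which levels of different genes can be set side by side, Cdkn1a stood below 3 of the other 4 inhibitors in lean and above all 4 in obese atria when all exons were counted. Lean atria held 210 ± 26.9 normalized reads per kilobase of Cdkn1b, 163 ± 20.3 of Cdkn2d, 156 ± 12.3 of Cdkn1c, 140 ± 21.5 of Cdkn1a and 107 ± 8.27 of Cdkn2c. In this order Cdkn2d and Cdkn1c, and likewise Cdkn1c and Cdkn1a, differed by less than the larger of their SDs. In obese atria Cdkn1a led with 705 ± 115 normalized reads per kilobase, above Cdkn1b at 241 ± 62.7, Cdkn2d at 143 ± 38.0, Cdkn2c at 109 ± 22.1 and Cdkn1c at 103 ± 11.3. Here Cdkn2d and Cdkn2c, and Cdkn2c and Cdkn1c, differed by less than the larger SD. Of the summed per-kilobase level of all 5, Cdkn1a made up 46.0%, 52.1% and 64.7% in obese mice 1, 2 and 3 and 19.99%, 18.6% and 15.5% in lean mice 1, 2 and 3. The mean share was 54.3 ± 9.54% in obese and 18.0 ± 2.29% in lean atria. Without Cdkn1a, the other 4 summed to 706, 628 and 451 normalized reads per kilobase in obese and 614, 664 and 630 in lean mice, values that overlap. Counted over the longest transcript of each gene in place of all exons, the mean share was 65.6% in obese and 26.2% in lean atria. On that scale Cdkn1a was first in lean atria too, at 240 ± 36.7 normalized reads per kilobase against 210 ± 26.9 for Cdkn1b, a difference smaller than the larger SD, so its place in lean atria depends on the length used.

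**Figure D2:**
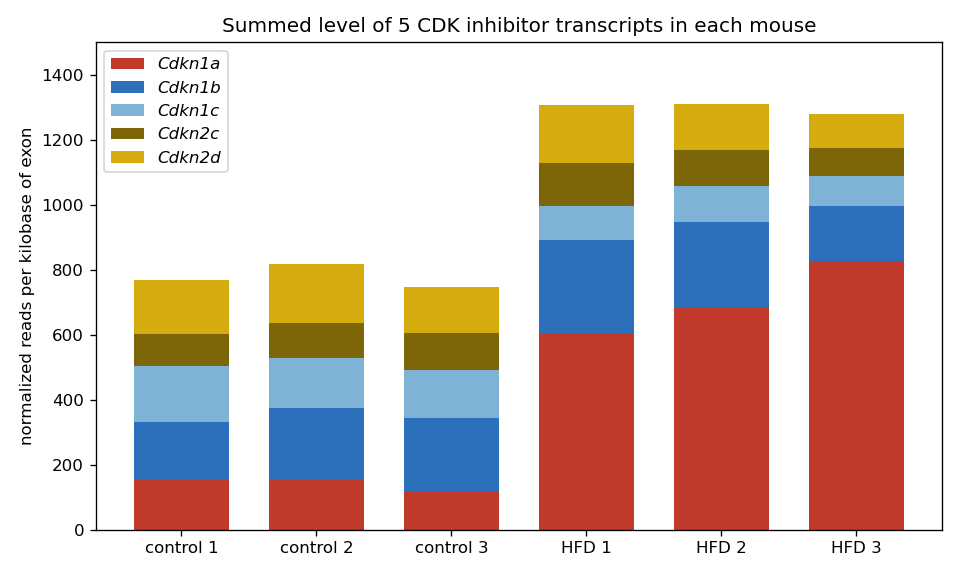
Stacked normalized reads per kilobase of exon (vertical axis) of 5 CDK inhibitor genes in each of 3 lean and 3 obese mice. The Cdkn1a part is 602 to 828 in obese and 116 to 153 in lean mice, and the summed bars reach 1280 to 1311 and 745 to 816.

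Trp53 itself and the 4 p53 targets of the set overlapped between the diets. Trp53 (chr11:69580359-69591873) had 441, 416 and 585 normalized reads in obese and 528, 453 and 439 in lean mice, a log2 fold change of 0.01 (SE 0.16). Obese mouse 3 was the highest of the 6, and without it the log2 fold change was -0.14. Transcript level says nothing about p53 protein, which is controlled mainly by its degradation.

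Mdm2 (chr10:117688888-117710758), a target and the main negative regulator of p53, had 1331, 1265 and 1089 normalized reads in obese and 997, 1030 and 1233 in lean mice. Obese mice 1 and 2 lay above all lean mice and obese mouse 3 among them, with a log2 fold change of 0.18 (SE 0.13). Ccng1 (chr11:40748552-40755311) was the most abundant of the 10 genes at 10666, 10867 and 9918 normalized reads in obese and 9059, 11329 and 11422 in lean mice. Its obese values lay within the lean range, and its log2 fold change was -0.01 (SE 0.13). Cdkn1a and Ccng1, the genes with a full p53 site in the windows shown above, thus had ratios of 5.02 and 0.989 between the diets.

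Trp53inp1 (chr4:11156431-11174379), a stress-induced gene that promotes autophagy and cell death, had 333, 358 and 221 normalized reads in obese and 195, 238 and 240 in lean mice. Obese mice 1 and 2 lay above the lean range and obese mouse 3 within it, and the log2 fold change was 0.41 (SE 0.20), or 0.62 without obese mouse 3. Zmat3 (chr3:32334792-32366014), which encodes an RNA-binding zinc finger protein, had 285, 367 and 340 normalized reads in obese and 294, 305 and 283 in lean mice, a log2 fold change of 0.16 (SE 0.15). Obese mouse 1 lay within the lean range and the other two obese mice above it.

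Across all 10 genes, 1 passed an adjusted p of 0.05 as higher in obese atria (Cdkn1a) and 0 as lower, with 2 at an unadjusted p under 0.05 (limma). Of all genes tested, 0.484% passed as higher, 0.262% as lower and 0.746% in either direction. Groups that did not overlap were found for 1 of the 10 genes with obese above lean and 1 with obese below, against 8.86% and 9.17% of all genes tested. Since the set was chosen by this comparison, nothing is read from these counts. DESeq2 on the recovered reads called 2 of the 10, adding Cdkn1c, and limma without a variance trend called 0 of the 10 and 0 of all genes.

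Several of the genes varied together within a diet, and obese mouse 3 stood apart from the other obese mice. It was the lowest obese mouse for 7 of the 10 genes (Cdkn1b, Cdkn1c, Cdkn2c, Cdkn2d, Mdm2, Ccng1 and Trp53inp1) and the highest for Cdkn1a and Trp53. Relative to the obese mean, it stood at -0.47 log2 units for Cdkn1b, -0.42 for Trp53inp1 and -0.41 for Cdkn2d, but at 0.30 for Trp53 and 0.25 for Cdkn1a. After subtraction of the diet means, Cdkn1b correlated over the 6 mice with Trp53inp1 at r = 0.96 and with Cdkn2c at r = 0.95. Trp53 ran opposite to Trp53inp1 at r = -0.996 and to Cdkn1b at r = -0.96. Cdkn1a ran opposite to Mdm2 at r = -0.99 and to Cdkn2c at r = -0.86. These correlations are descriptions over 6 libraries normalized together, and obese mouse 3 is the most extreme point for Cdkn1b, Trp53inp1 and Trp53. The same mouse had the highest summed atrial cardiomyocyte markers of the 6, and the part of tissue composition in these deviations was not tested.

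**Figure D3:**
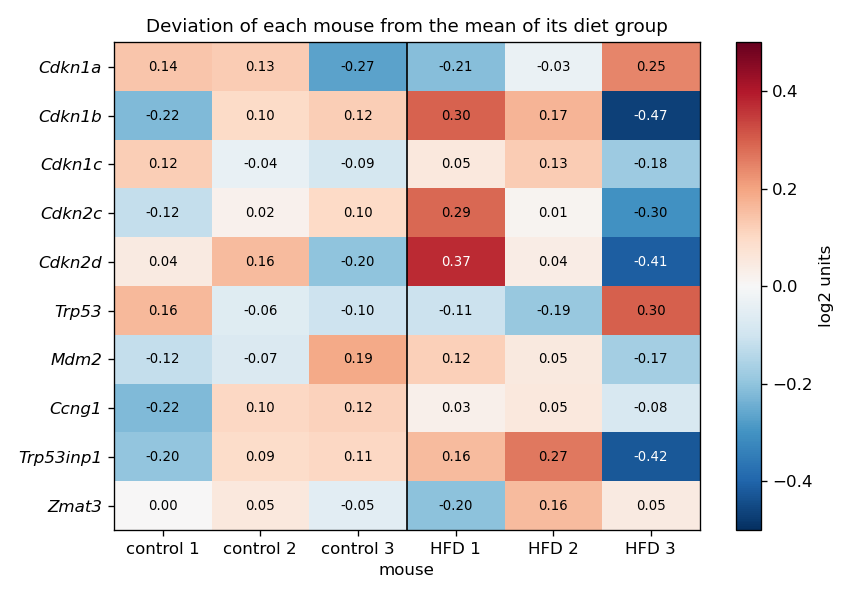
Deviation of each mouse from its diet mean in log2 units (colour and printed value) for the 10 genes, lean mice on the left and obese mice on the right. Obese mouse 3 is the lowest obese mouse for 7 genes, down to -0.47 for Cdkn1b, and the highest for Cdkn1a at 0.25 and Trp53 at 0.30.

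Further p53 targets were then examined to place Cdkn1a within the pathway. Of 34 listed, 33 were tested, 0 passed an adjusted p of 0.05 (limma) and 4 had an unadjusted p under 0.05, all higher in obese atria. At that unadjusted level stood 12.2% of all genes tested. The median log2 fold change of the list was -0.00, with 16 genes above and 17 below 0, against a median of 0.00 over all genes tested. Gdf15, a stress-induced circulating cytokine, had 60.3, 47.9 and 122 normalized reads in obese and 20.2, 32.9 and 9.84 in lean mice, a log2 fold change of 1.86 (SE 0.48, adjusted p = 0.120). Fas, the death receptor, had 389, 317 and 277 normalized reads in obese and 135, 218 and 179 in lean mice, a log2 fold change of 0.89 (SE 0.20, adjusted p = 0.0826). For both genes the obese mice lay above all lean mice. DESeq2 on the recovered reads called these 2 genes, with adjusted p of 0.0106 for Gdf15 and 0.00733 for Fas, and limma called Fas without obese mouse 3 (adjusted p = 0.0462). The other two genes at an unadjusted p under 0.05, named after their values were seen, also had all obese above all lean mice. They were Apaf1, the core of the apoptosome, at a log2 fold change of 0.52 (adjusted p = 0.248), and Dram1, a lysosomal autophagy gene, at 0.47 (adjusted p = 0.365). Of the 33 tested, 5 had all obese above all lean mice and 2, among them Ddb2, had all obese below. Of all genes tested, 8.86% and 9.17% did so.

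Among the remaining targets, log2 fold changes were 0.04 for Bax and -0.09 for Bbc3 (PUMA), which drive mitochondrial apoptosis, and 0.69 for Pidd1, a scaffold of caspase activation. They were 0.12 for Sesn1 and 0.38 for Sesn2, the sestrins that restrain mTORC1, -0.05 for Phlda3, an inhibitor of AKT, and 0.10 for the death receptor Eda2r. The lowest of the list were Gtse1 at -0.79, the DNA repair gene Ddb2 at -0.34 and the TRAIL receptor Tnfrsf10b at -0.34. Rps27l, the further target with a full site, had 379, 384 and 340 normalized reads in obese and 314, 381 and 395 in lean mice, and was named for its sequence after the values were seen (adjusted p = 0.972). For the other genes of this paragraph the adjusted p was at least 0.534.

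**Figure D4:**
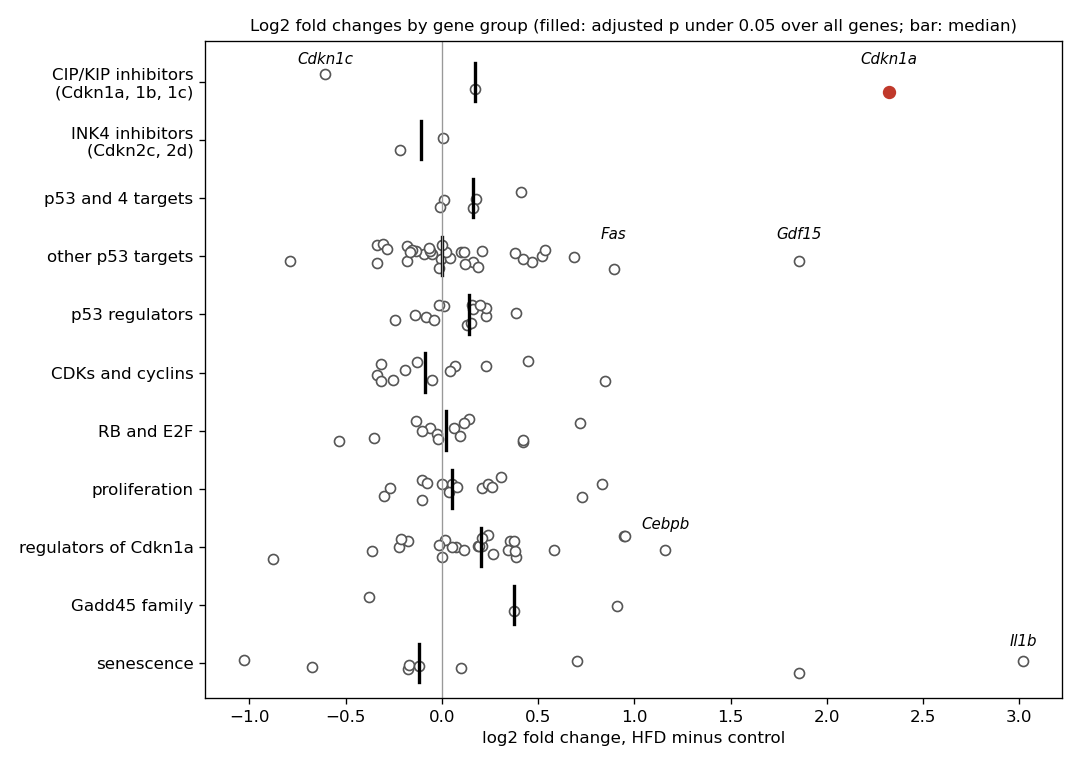
Log2 fold changes, obese minus lean (horizontal axis), of each gene tested in 11 groups, with the median as a bar and genes past an adjusted p of 0.05 over all genes filled. Cdkn1a at 2.32 is the 1 filled point, and the p53 targets outside the set centre on 0 with Gdf15 at 1.86 the farthest.

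Of 17 genes listed as regulators or relatives of p53, 14 were tested, 0 passed and 1 had an unadjusted p under 0.05 (limma). At that unadjusted level stood 12.2% of all genes tested. The median log2 fold change of the list was 0.14. The 1 gene was Trp53inp2, an autophagy factor named for its likeness to Trp53inp1, so it is not read as a regulator of p53. It had 13652 ± 1340 normalized reads in obese and 10412 ± 236 in lean atria (log2 fold change 0.39, adjusted p = 0.187). DESeq2 called it with an adjusted p of 0.0334. Mdm4, the partner of Mdm2 in restraining p53, had a log2 fold change of 0.01 (SE 0.15). The damage kinases Atm and Atr stood at 0.23 each, and the acetyltransferase Kat5 was the lowest at -0.24, below Trim24 at -0.14 and Rchy1 at -0.08.

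The kinases and cyclins that p21 acts on were likewise without a called gene. Of 13 listed CDKs and cyclins 12 were tested, 0 passed and 1 had an unadjusted p under 0.05 (limma), beside 12.2% of all genes tested. Their median log2 fold change, over the 12, was -0.09. Cdk6 had 65.1 ± 11.2 normalized reads in obese and 37.2 ± 13.3 in lean atria (log2 fold change 0.85, SE 0.34, adjusted p = 0.353). Cdk4, its more abundant relative, had 777 ± 66.0 and 927 ± 55.1 (log2 fold change -0.25, adjusted p = 0.426). All obese values lay above all lean values for 1 of the 12 (Cdk6) and below for 1 (Cdk4). Of all genes tested, 8.86% and 9.17% did so. The log2 fold change was -0.19 for Cdk2, 0.07 for Ccnd1, 0.23 for Ccnd2, 0.04 for Ccnd3 and 0.45 for Ccng2, a cyclin that slows the cycle. Ccng2 had an adjusted p of 0.479 with all mice and was called without obese mouse 3 (log2 fold change 0.74, adjusted p = 0.0398). The mitotic genes Cdk1, Ccnb2 and Ccna2 were low, at 16.5 to 24.7 mean normalized reads in either diet, with log2 fold changes of -0.34, -0.32 and -0.31. For Cdk1 the plain means ran the other way, 18.0 in obese and 16.5 in lean atria, with 39.8 normalized reads in obese mouse 3 against 6.03 and 8.16 in obese mice 1 and 2. Without obese mouse 3 the log2 fold change was -1.12.

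Downstream of the CDKs, the retinoblastoma and E2F genes gave 0 of 14 tested (15 listed) past the threshold. An unadjusted p under 0.05 was reached by 2 (limma), beside 12.2% of all genes tested. Their median log2 fold change, over the 14, was 0.02. Rb1, the pocket protein whose phosphorylation p21 prevents, had 481 ± 54.4 normalized reads in obese and 462 ± 68.4 in lean atria. E2f3 stood at 0.42 (adjusted p = 0.328) and E2f5, which acts with pocket proteins as a repressor, at -0.53 (adjusted p = 0.382). E2f1 reached 0.72 from 14.8 ± 2.59 normalized reads in lean atria, and E2f8 and Tfdp1 stood at -0.35 and -0.13. All obese values lay above all lean values for 2 of the 14 (E2f3 and E2f1) and below for 1 (E2f5). Of all genes tested, 8.86% and 9.17% did so. Tfdp2, the E2F partner, was called without obese mouse 3 (log2 fold change 0.86, adjusted p = 0.00468) and stood at 0.42 with an adjusted p of 0.620 with all mice.

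Proliferation genes ranged from Bub1, at a mean of 5.94 normalized reads in obese and 5.63 in lean atria, to Pcna, the clamp of the replication fork, at 463 and 488. Of 16 listed, 15 were tested, and 0 passed either the adjusted or the unadjusted threshold (limma), with 10 log2 fold changes above and 5 below 0 and a median of 0.05. Their summed value was 1859 to 1895 normalized reads in obese and 1771 to 1920 in lean atria. The highest were Birc5 (survivin) at 0.83, Plk1 at 0.73 and Top2a at 0.31, and the lowest Mcm2 at -0.30, Aurkb at -0.27 and Mcm5 at -0.10.

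Genes of factors known to act on the Cdkn1a promoter included 19 with positive and 7 with negative log2 fold changes, and 50.8% of all genes tested were positive. The list holds both activators, such as Foxo3, and repressors, such as Myc, so the tally gives no direction of action on Cdkn1a. Of these 26, 0 passed the adjusted threshold and 6 had an unadjusted p under 0.05 (limma), 5 higher and 1 lower, beside 12.2% of all genes tested at that level, and the median log2 fold change was 0.20. Cebpd, an inflammation and stress-induced C/EBP factor, had 645, 441 and 649 normalized reads in obese and 341, 308 and 244 in lean mice (log2 fold change 0.95, SE 0.19, adjusted p = 0.055). Cebpb had 965, 875 and 804 in obese and 481, 514 and 245 in lean mice (log2 fold change 1.16, SE 0.24, adjusted p = 0.0657). All obese mice exceeded all lean mice for both genes. The same held for 6 of the 26 genes in all, and 0 had all obese below all lean mice. Of all genes tested, 8.86% lay wholly above and 9.17% wholly below. The list was chosen with earlier results of these data known, so nothing is read from this count. Over the alternative settings the adjusted p ranged from 0.000354 to 0.224 for Cebpd and from 0.00029 to 0.250 for Cebpb. Myc, a repressor of Cdkn1a, stood beside Cebpd at 0.95 with overlapping groups (adjusted p = 0.490), and the lowest were Klf5 at -0.87, Stat5a at -0.36 and Egr1 at -0.22. Foxo3, a FOXO factor that activates Cdkn1a and Cdkn1b, was named after its values were seen, as the 1 gene of this list called without obese mouse 3 (log2 fold change 0.68, adjusted p = 0.028). With all mice Foxo3 had 1693, 2076 and 1017 normalized reads in obese and 1094, 1276 and 1149 in lean mice, which overlapped (adjusted p = 0.532, limma). Klf4, also named after its values were seen, had all obese above all lean mice (log2 fold change 0.58, adjusted p = 0.129, limma). DESeq2 with all mice called Klf4 (adjusted p = 0.0253), Cebpb and Cebpd of this list.

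The Gadd45 family, growth arrest genes often induced beside Cdkn1a, gave 0 of 3 called and 0 at an unadjusted p under 0.05 (limma). Gadd45g had 246, 272 and 1645 normalized reads in obese and 252, 220 and 301 in lean mice, a log2 fold change of 0.91, with 1 obese mouse, mouse 3, above the lean range. Without that mouse it was 0.02. Gadd45b stood at 0.38 and Gadd45a at -0.38. Obese mouse 3 thus had the highest Cdkn1a, Trp53 and Gadd45g of the 6 mice.

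Genes used as marks of cell senescence, in which p21 and p16 are induced, were mixed. Of the 13 described here, 9 were tested, 0 were called and 3 had an unadjusted p under 0.05 (limma). Of all genes tested, 0.746% were called and 12.2% had an unadjusted p under 0.05 (limma). The median log2 fold change of the list was -0.12. DESeq2 called 1, Gdf15, and edgeR 0. Il1b had 22.1, 27.5 and 97.7 normalized reads in obese and 5.60, 0 and 17.5 in lean mice (log2 fold change 3.02, SE 1.00, adjusted p = 0.232). Its lean mean of 7.70 was below the filter level of 10, which Il1b passed through its obese values. It was 1 of 2 genes of the list with all obese above all lean mice, while 2 had all obese below. Of all genes tested, 8.86% and 9.17% did so. Mmp3, a matrix metalloproteinase, had 676, 551 and 343 normalized reads in obese and 278, 271 and 395 in lean mice, which overlapped (log2 fold change 0.70, adjusted p = 0.262), and it was called when obese mouse 3 was left out (log2 fold change 0.98, adjusted p = 0.0296, limma). Glb1, the source of senescence-associated galactosidase activity, stood at -0.17, Cxcl1 at -1.03 and, as given above, Cdkn2b at -0.67.

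The genes whose pattern over the 6 mice was most like that of Cdkn1a were sought among 10830 genes that averaged 100 normalized reads or more. Of these, 234 had a Pearson r above 0.9. The 5 highest were Itgam (r = 0.995), Baz1a (0.993), Gba2 (0.993), Ascc3 (0.993) and Ms4a6c (0.992), with Spearman rho between 0.829 and 1. With the diet means subtracted, r was 0.99 for Gba2, 0.86 for Ascc3, 0.82 for Baz1a, 0.80 for Itgam and 0.70 for Ms4a6c. These 6 points fall into 2 clusters, 1 per diet, so a high r mostly restates a difference between diets. Itgam, the CD11b integrin of myeloid cells, had 262, 300 and 295 normalized reads in obese and 132, 125 and 118 in lean mice (log2 fold change 1.18, adjusted p = 0.0106, limma). Ms4a6c, a gene of monocytes and macrophages, had 198 ± 25.0 and 77.9 ± 1.99 (log2 fold change 1.33, adjusted p = 0.014). Gba2 ranged only from 522 to 704 normalized reads over all mice. The adjusted p was 0.0695 for Baz1a, 0.305 for Gba2 and 0.348 for Ascc3 (limma). All 5 genes were picked for their likeness to Cdkn1a over the same mice, so these p-values are no separate evidence.

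**Figure D5:**
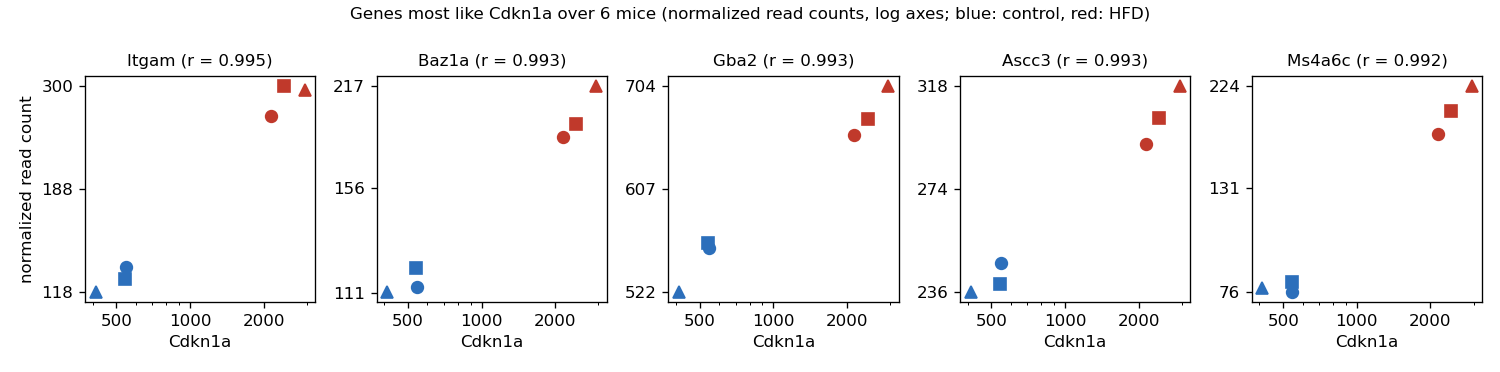
Normalized read counts of the 5 genes most like Cdkn1a (vertical log axes) against Cdkn1a (horizontal log axes) in 3 lean (blue) and 3 obese (red) mice. Points form 1 cluster per diet in every panel, with Itgam at 262 to 300 in obese and 118 to 132 in lean mice.

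Markers of other cell types were compared beside Cdkn1a, and 3 of those tested were called (limma), beside 0.746% of all genes tested. The 7 macrophage markers summed to 5535 to 5764 normalized reads in obese and 4090 to 5099 in lean atria, with 1 of 7 called (Itgam) and none at 0. Brown adipocyte markers summed to 616 to 1283 in obese and 187 to 330 in lean atria, with 2 of 3 tested called (Ucp1 and Cidea) and the fourth, Elovl3, at 0 in lean mice 2 and 3. Endothelial markers summed to 16641 to 18671 and 14059 to 14222 with 0 of 5 called, and white adipocyte markers to 5879 to 10687 and 3232 to 5563 with 0 of 6 called. The 6 lymphocyte markers together gave only 22.4 to 79.5 normalized reads and none reached the level for testing. Fibroblast markers summed to 31294 to 32698 and 31128 to 36489 with 0 of 5 called, and mesothelial markers to 1135 to 1804 and 1235 to 1843 with 0 of 4 called. Taken singly, 3 macrophage, 3 brown adipocyte, 3 endothelial and 1 white adipocyte markers had all obese above all lean values. In these groups 0 had all obese below. Of all genes tested, 8.86% lay wholly above and 9.17% wholly below. The 3 called markers had log2 fold changes of 4.43 for Ucp1, 1.21 for Cidea and 1.18 for Itgam, beside 2.32 for Cdkn1a. Over the 15 alternative settings their adjusted p rose as high as 0.235, 0.177 and 0.0854, so each call was lost in some. The part of these cells in the Cdkn1a difference was not tested.

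Of the tested genes next to Cdkn1a on chromosome 17, 3 on each side, 0 passed the threshold (limma, adjusted p of at least 0.378). Srsf3, a splicing factor gene starting 58.3 kb before Cdkn1a, had a log2 fold change of -0.19, and Stk38, starting 83.0 kb before it, 0.27. After the gene lie the pseudogene Rpl35a-ps3, Cpne5 and Ppil1 at -0.08, -0.21 and -0.21. Trp53cor1, the p53-induced long noncoding RNA lincRNA-p21 starting 12018 bases before Cdkn1a, had 5.77 ± 3.89 normalized reads in obese and 18.4 ± 7.54 in lean atria, a log2 fold change of -1.59 (SE 0.68, adjusted p = 0.378). It passed the filter on low values through its lean values.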

How the data were processed

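The authors prepared directional libraries and sequenced single-end 50-base reads. Reads mapping to 1 place in GRCm38 (STAR) were counted per Ensembl gene with Salmon. The authors deposited the signal per gene and sample, which is the read count divided by a DESeq2 size factor (normalized read count). Their own comparison columns (fold change, p and adjusted p) were not used. Dividing each sample by its smallest step gave whole reads for 100% of values. Whether strand was used in counting is not given in the sources used here.

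The values were tested with limma 3.58.1 in R 4.3.3 (eBayes with trend) on log2(value + 1), which understates changes of low genes, for genes averaging 10 or more, with Benjamini-Hochberg adjustment over all 15275 genes. The fit was tested on counts simulated with the means and library sizes of these data. Of 200 changed genes among 15275, 177 were recovered, with 8 false calls. Every simulated gene had the same relative spread between mice beyond counting noise, and no mouse stood apart. The recovery in the real data is therefore not known from this. Alternatives used DESeq2 1.42.0 and edgeR 4.0.16 on recovered reads, other filters and scalings, and omission of each mouse. Exon lengths came from GENCODE M21. The members and lists were chosen with earlier results of these data known. Named genes are the 10 of the set and, per list, those past the threshold, the 3 highest and 3 lowest, and 16 fixed partners. For the senescence list, 1 gene is not reported here and is left out of its counts.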

Additional observations from a re-analysis of the deposited data

How the results depend on the processing

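The log2 fold change of Cdkn1a was positive under 15 of 15 alternatives and that of Cdkn1c negative under 15 of 15, while Cdkn2c, Trp53 and Ccng1, all near 0, changed sign in 4, 5 and 3. For Cdkn1a and Cdkn1c the groups did not overlap, so omission of a mouse could not turn the sign. The filters and the variance trend leave the fold change itself unchanged. Their tallies are therefore no separate support. Against 114 genes called in all, limma without a variance trend called 0 (1717 at an unadjusted p under 0.05), DESeq2 483, and omission of 1 mouse 14 (lean mouse 2) to 318 (obese mouse 3). Of the 10 genes, 1 was called, 0 without a trend and 2 by DESeq2. Omission of 1 mouse gave 0 to 1 called genes for the other p53 targets, for CDKs and cyclins, for RB and E2F genes, for regulators of Cdkn1a and for senescence genes. DESeq2 called 2 other p53 targets, 1 gene listed with the p53 regulators (Trp53inp2), 3 regulators of Cdkn1a and 1 senescence gene. Among the regulators of Cdkn1a, no filter on low values called 2 (Cebpb and Cebpd) and a mean of at least 50 called 1 (Cebpd). By the longest transcript the share of Cdkn1a was 65.6% in obese and 26.2% in lean atria, where it then ranked first, and the fifth most similar gene had a Spearman rho of 0.829. The cause of these changes was not tested.

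The replicate numbers name different animals. Same-numbered mice deviated together with r = 0.12, -0.03 and -0.00, and different-numbered mice with r from -0.15 to 0.16. With 3 mice per diet these values cannot decide whether same-numbered mice shared a cage, litter or processing. The main fit did not pair them. With the number as a replicate block, 157 genes were called in all, 1 of the 10 genes and 2 regulators of Cdkn1a (Cebpb and Cebpd). The 10 genes had at least 145 reads per library. For Cdkn2a and Cdkn3, near 3 reads, a difference was not detectable at this depth.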
